A study of Mus musculus with 6 samples.

Results

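Melanosome transport genes were examined in the chromatin of B16 cells, a mouse melanoma cell line. The 6 genes were chosen by symbol from what is known of the pathway: Rab27a, Rab38, Rab32, Mlph, Myo5a and Sytl2. All 6 matched a protein-coding gene, of 21883 such genes on the nuclear chromosomes of the RefSeq table for GRCm38.p6. The data were peak lists of 2 libraries of wild-type B16 cells made by CUT&Tag, in which an antibody directs a transposase to its target so that it cuts and tags the DNA there. One antibody recognised H3K4me3, trimethylated lysine 4 of histone H3, which marks active promoters. The other recognised p300, a histone acetyltransferase found at active enhancers and promoters. The series also labels 4 H3K9me3 libraries, from wild-type cells and from cells with knockout of Tdg, Trp53 or both, which were not analysed here, so the values below describe unedited cells and compare no genotypes. With 1 library for each antibody there was no replicate check, and no test was made.

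Melanosomes are the pigment organelles of melanocytes, made near the nucleus and carried to the cell edge for transfer to keratinocytes. RAB27A is a small GTPase on the mature melanosome. It binds melanophilin, the product of Mlph, which in turn binds the actin motor myosin Va, the product of Myo5a. Loss of any of the 3 lightens the coat in mice (the ashen, leaden and dilute mutants). Synaptotagmin-like 2, the product of Sytl2, also binds RAB27A and anchors melanosomes at the plasma membrane. RAB38 and RAB32 are related GTPases that act earlier and direct melanin-making enzymes to the maturing organelle. RAB38 is mutated in the chocolate mouse.

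Promoter sequences are shown for the starts at which both proteins were found (the internal start of Rab27a, and Myo5a), for the other start of Rab27a as its contrast, and for Mlph, which lay in the broadest H3K4me3 peak of the group. They come from RefSeq (GRCm38.p6) and run from 250 bases before the annotated start to 50 after it, 5′ to 3′ on the strand of the gene, here always the plus strand. The table held 5 such windows for 4 of the 6 genes. Rab38 and Sytl2 had no entry. A single capital marks the start base, and a block of capitals marks the E-box CACGTG, a sequence bound by MITF, MYC and related factors.

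Rab27a, first start, chr9:73044560-73044859: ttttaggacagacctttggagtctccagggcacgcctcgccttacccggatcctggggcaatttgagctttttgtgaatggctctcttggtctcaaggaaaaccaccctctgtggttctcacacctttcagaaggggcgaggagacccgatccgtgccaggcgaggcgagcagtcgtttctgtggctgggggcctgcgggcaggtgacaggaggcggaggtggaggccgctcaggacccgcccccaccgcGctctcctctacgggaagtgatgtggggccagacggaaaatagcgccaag

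Rab27a, internal start, chr9:73063898-73064197: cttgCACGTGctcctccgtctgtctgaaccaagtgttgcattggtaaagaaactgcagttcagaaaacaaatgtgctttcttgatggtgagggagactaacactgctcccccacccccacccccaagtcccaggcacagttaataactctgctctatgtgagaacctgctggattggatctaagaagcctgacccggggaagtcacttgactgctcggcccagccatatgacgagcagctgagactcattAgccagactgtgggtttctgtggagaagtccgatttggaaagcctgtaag

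Myo5a, chr9:75070956-75071255: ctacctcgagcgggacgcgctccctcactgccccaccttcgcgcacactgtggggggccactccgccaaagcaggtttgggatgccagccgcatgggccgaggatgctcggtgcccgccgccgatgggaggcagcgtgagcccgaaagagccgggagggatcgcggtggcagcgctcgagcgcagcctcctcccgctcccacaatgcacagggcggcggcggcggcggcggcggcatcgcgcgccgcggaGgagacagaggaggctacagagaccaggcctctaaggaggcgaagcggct

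Mlph, chr1:90914850-90915149: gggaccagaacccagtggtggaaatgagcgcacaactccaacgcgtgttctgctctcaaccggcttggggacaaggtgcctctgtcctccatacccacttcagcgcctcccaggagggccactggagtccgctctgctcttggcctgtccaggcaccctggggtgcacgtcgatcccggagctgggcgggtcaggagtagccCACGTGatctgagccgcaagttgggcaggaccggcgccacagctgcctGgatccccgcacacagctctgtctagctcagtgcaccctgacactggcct

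The windows differed in CpG content. The first start of Rab27a held 18 CpG dinucleotides and its internal start 6, while Mlph held 15, Rab32 10 and Myo5a 36. Over 21262 windows of protein-coding genes the median was 13. It was 22 (quartiles 15 and 30) where an H3K4me3 peak came within 1 kb of the start, and 4 where none did. The internal start of Rab27a and the start of Rab32 thus carried H3K4me3 with fewer CpGs than the lower quartile of marked windows, and Myo5a with more than the upper quartile.

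The E-box CACGTG was present at the internal start of Rab27a, from -246 to -241 relative to the start base, and at Mlph, from -48 to -43. At Mlph it had a T before it on the minus strand (TCACGTG, which contains the shorter motif). Of all windows 7.84% held CACGTG and 4.39% TCACGTG, and of windows with H3K4me3 10.5% and 6.38%. Both strands were searched. A GC box (GGGCGG) was found at the first start of Rab27a, at Mlph and at Myo5a. It was in 46.2% of all windows and in 67.8% of windows with H3K4me3, which all 5 windows here had. The internal start of Rab27a held CCAAT at 2 places (38.2% of all windows hold it and 38.6% of those with H3K4me3). Myo5a held the SOX core ACAATG (11.0% and 6.64%). The other motifs searched had no match in the 5 windows. These were the melanocyte type of E-box CATGTG (11.5% of windows) and its longer form TCATGTG (2.99%), the SOX core ACAAAG (16.8%), the AP-1 motif TGANTCA (6.99%) and the CRE motif TGACGTCA (2.23%). The start of Rab32 held none of the motifs. A match describes the letters of the window only.

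H3K4me3 was found at an annotated end of all 6 genes, against 50.5% of all protein-coding genes. Both ends of a gene were searched, with 1 kb to either side, since the gene table gives no strand. At the 5 RefSeq starts an H3K4me3 peak covered the start base each time, so that 4 of the 4 genes with a start in the table were marked there, against 52.8% of 17491 genes. For p300 the same ends and wider windows were searched. A p300 peak lay in the gene or within 50 kb for 6 of 6 genes, against 44.2% of all genes and 48.9% of the 11085 genes whose length was within the range of the 6 (13169 to 153890 bp). Only Rab38 had one within 1 kb of an annotated end, 1 of 6 (16.7%), near the 13.5% of all genes. Inside the gene and over 1 kb from its ends p300 was found in 5 of 6, all but Rab32, against 7.99% of all genes and 11.0% of genes of similar length. H3K4me3 was found there in 4 of 6 (Rab27a, Rab38, Myo5a and Sytl2), against 21.6%. Inside the gene does not mean away from a promoter here. The p300 peak counted inside Rab27a and the first of those inside Myo5a each covered a RefSeq start. At Rab27a an H3K4me3 peak counted as inside covered that start too. The shares of all genes were counted in the same way. The members were named for their function with results of these lists already known, so these counts are descriptions.

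**Figure D1:**
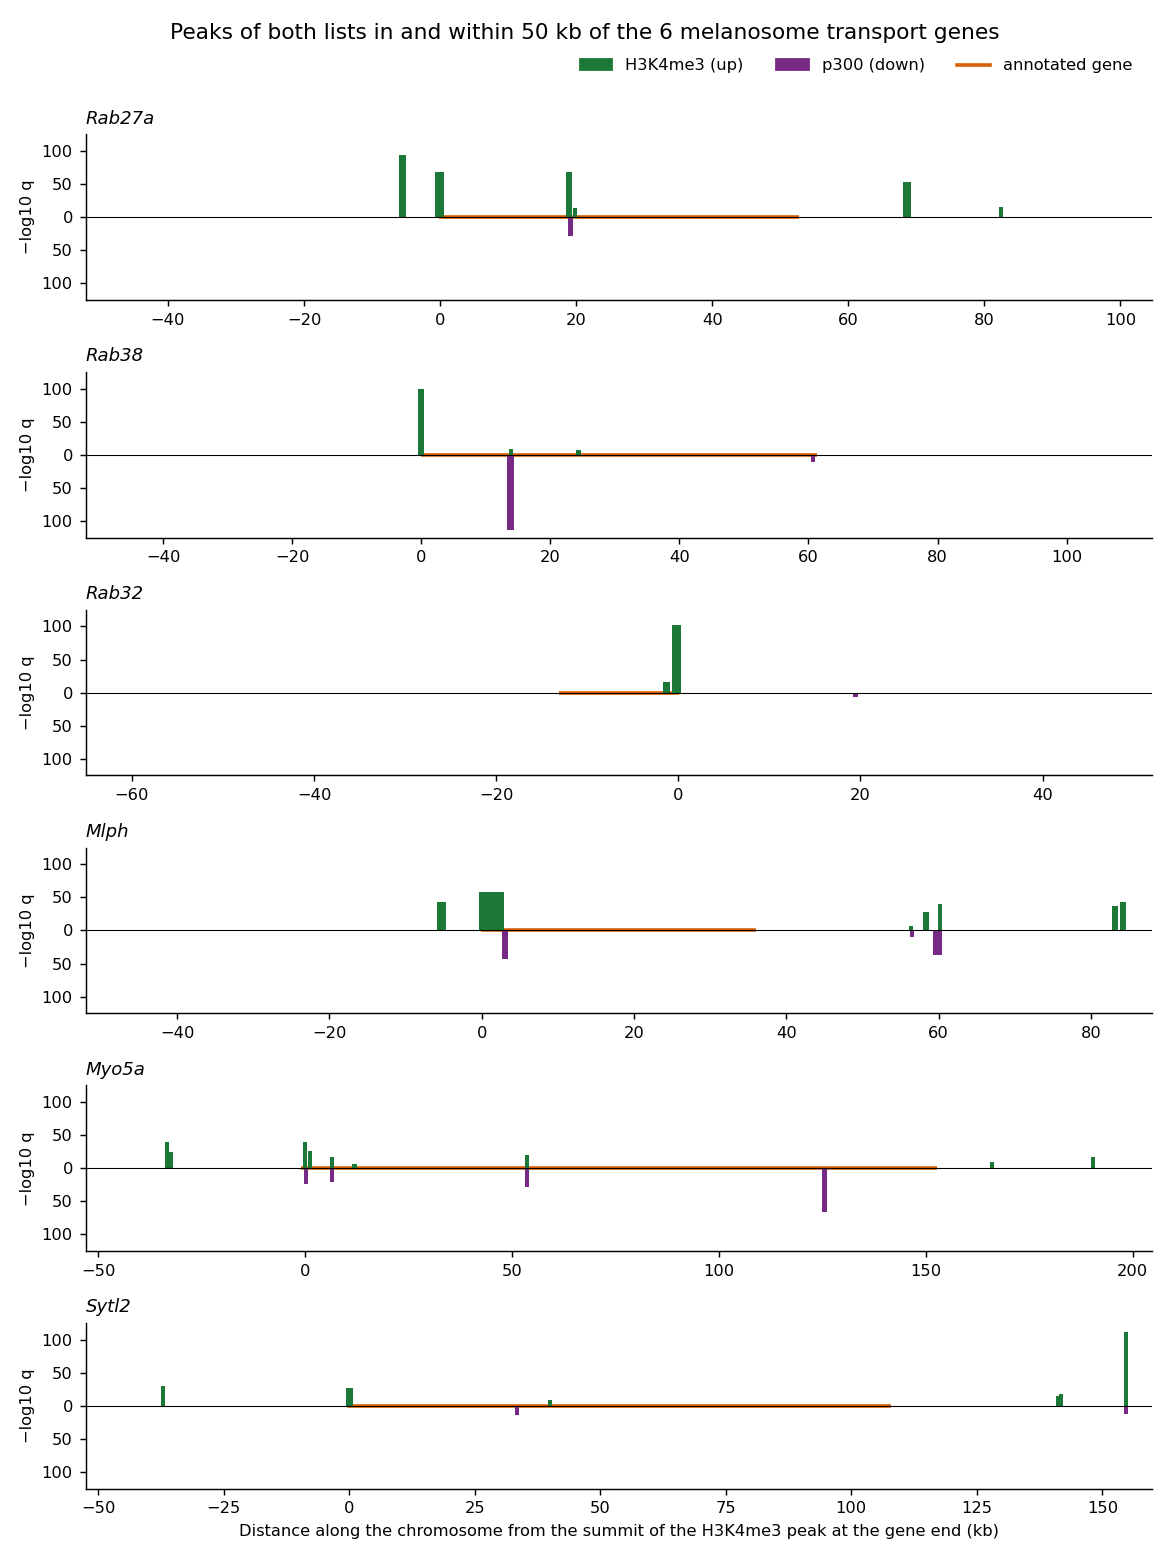
Peaks in and within 50 kb of each gene. The x axis is the distance in kb along the chromosome from the summit of the strongest H3K4me3 peak at the gene end, the y axis the deposited −log10 q, with H3K4me3 drawn upward, p300 downward and the annotated gene in orange (narrow peaks are widened to be visible). The tallest p300 bar, of 113, stands inside Rab38, and Rab32 has a single small p300 bar outside the gene.

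The strength of a peak is given by 3 values from the authors' lists: the fold enrichment of the summit over a background, the −log10 q, and the number of reads at the summit. The last was recovered from the deposited fold and −log10 p and carries an exact 95% Poisson interval, which covers counting error only. Across the lists the median summit held 79 reads for H3K4me3 (quartiles 45 and 129) and 39 for p300 (28 and 58.8). The depth of the 2 libraries was not known, so reads were not compared between the lists. A site without a listed peak had none detectable at this depth, and the smallest listed summits held 15 and 14 reads.

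At the gene ends, the H3K4me3 summit of Mlph held 216 reads (188 to 247), that of Rab38 194 (168 to 223) and that of Rab32 173 (148 to 201). Rab27a followed with 155 (132 to 181), Myo5a with 100 (81.4 to 122) and Sytl2 with 76 (59.9 to 95.1). In this order the counting intervals of neighbours overlapped, except those of Rab27a and Myo5a. The order changed with the measure. By −log10 q it was Rab32 (102), Rab38 (100.2), Rab27a (68.1), Mlph (58.6), Myo5a (39.9) and Sytl2 (26.9), beside a list median of 31.9. By fold Mlph was the lowest of the 6 at 3.95, under the list median of 6.24, and Rab32 the highest at 9.24. The background under the Mlph summit was 54.0 reads, against a list median of 12.2 (quartiles 6.31 and 19.7).

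**Figure D2:**
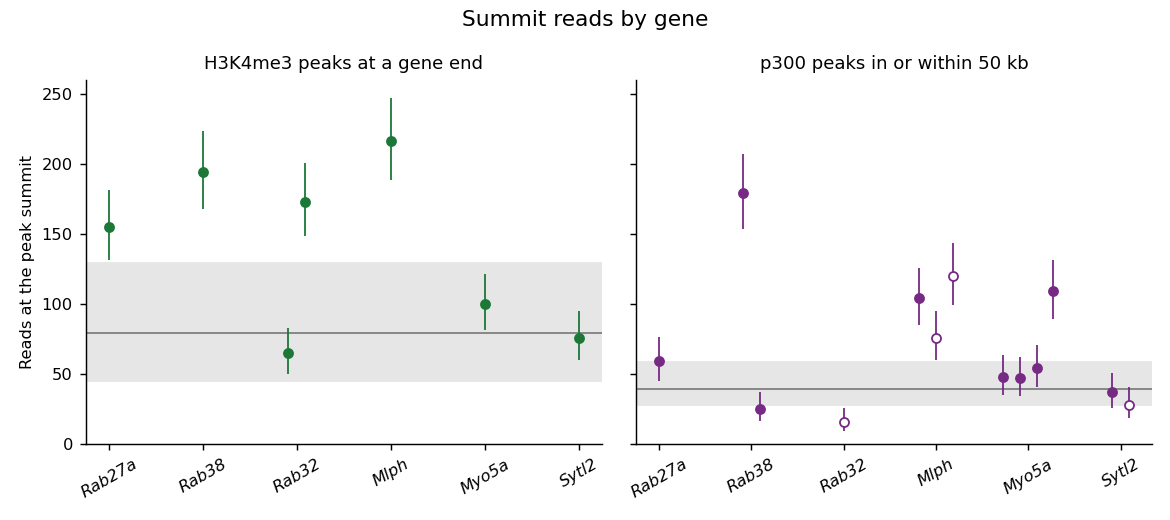
Reads at the peak summit for each gene (y axis), with exact 95% Poisson intervals. Left, H3K4me3 peaks at a gene end; right, p300 peaks in the gene (filled) or outside it within 50 kb (open); the grey line and band are the median and quartiles of the whole list. The strongest H3K4me3 summits of Rab27a, Rab38, Rab32 and Mlph lie above the upper quartile of 129 reads.

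Rab27a (chromosome 9, 73044810 to 73097623), the GTPase at the centre of the transport complex, had 2 annotated starts that were marked alike by H3K4me3 and differed in p300. The peak at the first start was 1341 bp wide with a fold of 6.29 and 155 summit reads. The peak at the internal start, from 73063422 to 73064296, was 875 bp wide with a fold of 6.43 and 153 summit reads (130 to 179), so that the counting intervals of the 2 summits overlapped. The single p300 peak of the locus, from 73063689 to 73064388, covered the internal start at base 73064148. It had a fold of 7.01, a −log10 q of 28.7 and 59 summit reads (44.9 to 76.1), and its summit lay 26 bp from that of the H3K4me3 peak. No p300 peak came within 1 kb of the first start. The p300 peak covered the whole of the internal window printed above, with the CpG-poor sequence and its E-box. A weaker H3K4me3 peak of 430 bp (fold 3.07, 72 reads) followed further into the gene.

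**Figure D3:**
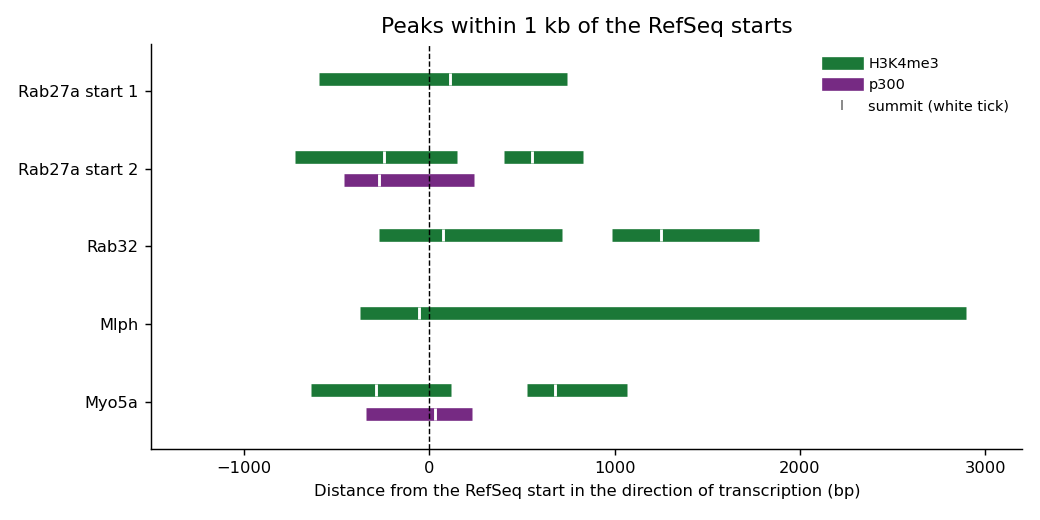
Peaks within 1 kb of the RefSeq starts of 4 genes. The x axis is the distance in bp from the start in the direction of transcription, bars are peaks (green H3K4me3, purple p300) and white ticks are summits. An H3K4me3 peak covers each of the 5 starts, and p300 covers the internal start of Rab27a and the start of Myo5a.

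Mlph (chromosome 1, 90915024 to 90951142), the linker between RAB27A and the motor, lay in a wide H3K4me3 peak. The peak ran from 90914726 to 90917994, a width of 3269 bp, against a list median of 757 bp. It ranked 33 by width among 27019 peaks. This rank was looked up after the width had been seen. Its summit lay 55 bp before the RefSeq start, and its far edge 2894 bp into the gene. A p300 peak from 90917726 to 90918457 sat across that far edge, with 269 bp in common. It had a fold of 5.88, a −log10 q of 42.4 and 104 summit reads (85.0 to 126), and its summit was 2889 bp from the start, outside the 1 kb window. So at Mlph the H3K4me3 summit was at the promoter and the p300 summit at the other margin of the same domain, 2944 bp away.

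Beyond the upper end of Mlph lay 2 more p300 peaks, 20153 and 23210 bp away. They had folds of 2.63 and 4.48 and 76 and 120.0 summit reads. The background there was high, 28.3 and 26.0 reads against an upper quartile of 9.48 for the p300 list. By fold the peaks ranked 6485 and 5462 of 6512, and by −log10 q 5083 and 854. Each overlapped an H3K4me3 peak, with summits 26 and 101 bp apart. Rab17, another Rab GTPase with a role in melanosome release, lies between these peaks and Mlph, so that its 3 p300 peaks within 50 kb were the same 3. Rab17 had no H3K4me3 peak within 1 kb of either end. Its upper end is at 90969673, and the nearer of the 2 p300 peaks starts at 90971295. Both of these peaks thus lay closer to Rab17 than to Mlph. The lists do not tell which gene a distal peak serves.

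Myo5a (chromosome 9, 75069799 to 75223688), the motor, had the most p300 peaks of the group, 4, all inside the gene. It is also the longest of the 6, and Mlph, with 3 such peaks over a gene of 36119 bp, had more for the length of window searched. The first, from 75070867 to 75071438, covered the RefSeq start with its summit 32 bp after it (fold 6.93, 48 reads, 35.4 to 63.6). The gene table opens upstream of the start in the promoter table, so this peak began over 1 kb from the annotated end and was counted as inside the gene. At RefSeq starts, 2 of 4 genes, Rab27a and Myo5a, had p300, against 14.4% of genes with a start in the table. This measure was added after the data had been seen.

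The other 3 p300 peaks of Myo5a lay deeper in the gene, and the deepest was the strongest. Their summits lay 6092, 53251 and 125258 bp into the gene, with folds of 6.08, 7.69 and 9.48 and with 47, 54 and 109 summit reads. The counting intervals of the first and second (34.5 to 62.5 and 40.6 to 70.5) overlapped, and that of the third (89.5 to 131) lay above both. The H3K4me3 under these peaks differed. It had a fold of 4.55 under the first, with summits 47 bp apart, and 7.85 under the second, with summits 6 bp apart. The third, from 75195901 to 75196955, overlapped no H3K4me3 peak. This peak had a −log10 q of 65.6 and ranked 294 of 6512 in the p300 list by that value and 209 by fold. It is also the single p300 peak within 50 kb of Myo5c, the neighbouring gene of a related myosin, which had no H3K4me3 at an annotated end.

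Sytl2 (chromosome 7, 90302211 to 90410719), the membrane tether, had the H3K4me3 of the fewest summit reads and the lowest −log10 q, when the strongest peak at an end of each gene is compared. The peak of 1383 bp had a fold of 4.90, its summit 525 bp inside the lower end. A p300 peak inside the gene, 33927 bp from that end, had a fold of 4.97, a −log10 q of 13.0 and 37 summit reads (26.1 to 51.0), below the list median of 39, and overlapped no H3K4me3. The second p300 peak within 50 kb, of fold 5.57, lay 46579 bp beyond the upper end. It came within 1 kb of an end of Tmem126a, which encodes a mitochondrial protein, inside an H3K4me3 peak of 186 reads there. With a limit of 25 kb only the first remained.

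Rab38 (chromosome 7, 88430273 to 88491572), which sorts melanin enzymes, had the strongest p300 peak of the group. It ran from 88443579 to 88444613, with its summit 13843 bp from the lower end of the gene. It had a fold of 10.4, a −log10 q of 113 and 179 summit reads (154 to 207), and ranked 91 of 6512 by −log10 q and 105 by fold. H3K4me3 was weak at this site: a peak of 365 bp with a fold of 3.17 and 42 reads, ranked 25991 of 27019 by −log10 q. At the lower gene end the marks were the other way round, with an H3K4me3 peak of fold 7.74 and 194 reads and no p300 peak within 1 kb. The second p300 peak of Rab38 was small (fold 5.82, 25 reads, 16.2 to 36.9). It lay within 1 kb of the upper end, the end without H3K4me3. It was this peak that placed Rab38 among genes with p300 at an end.

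Rab32 (chromosome 10, 10545039 to 10558207), the paralogue of Rab38, was the shortest of the 6 genes and had the least p300. Its start on the minus strand was covered by an H3K4me3 peak of 986 bp with a fold of 9.24 and 173 reads, similar to that of Rab38. A second, weaker H3K4me3 peak (fold 3.53, 65 reads) followed inside the gene. No p300 peak lay in the gene. The nearest was 19158 bp beyond the upper end with 16 summit reads (9.15 to 26.0), and ranked 6276 of 6512 by −log10 q. The related GTPases thus had H3K4me3 summits whose counting intervals overlapped, while the intervals of their strongest p300 summits, 154 to 207 and 9.15 to 26.0, did not.

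In all 13 p300 peaks lay in or within 50 kb of the 6 genes, of which 8 were inside a gene, 1 at an end and 4 outside. By −log10 q, 8 of the 13 were in the upper 50% of the p300 list and 2, at Rab38 and Myo5a, in the upper 10%. H3K4me3 overlapped 9 of 13 (69.2%), against 85.5% of all p300 peaks. The peaks without it were the last of Myo5a, the one inside Sytl2, the second of Rab38 and the one beside Rab32. When at least 50% of the p300 peak had to be covered, 5 of 13 qualified, against 77.8% of all p300 peaks. Of the 33 H3K4me3 peaks in the same windows 7 were at an end, 9 inside and 17 outside the genes. Of these 17, 12 were in or within 1 kb of a neighbouring protein-coding gene (Pigb, Pigbos1, Rsl24d1, Lrrfip1, Arpp19, Myo5c, Ccdc83, Crebzf or Tmem126a).

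**Figure D4:**
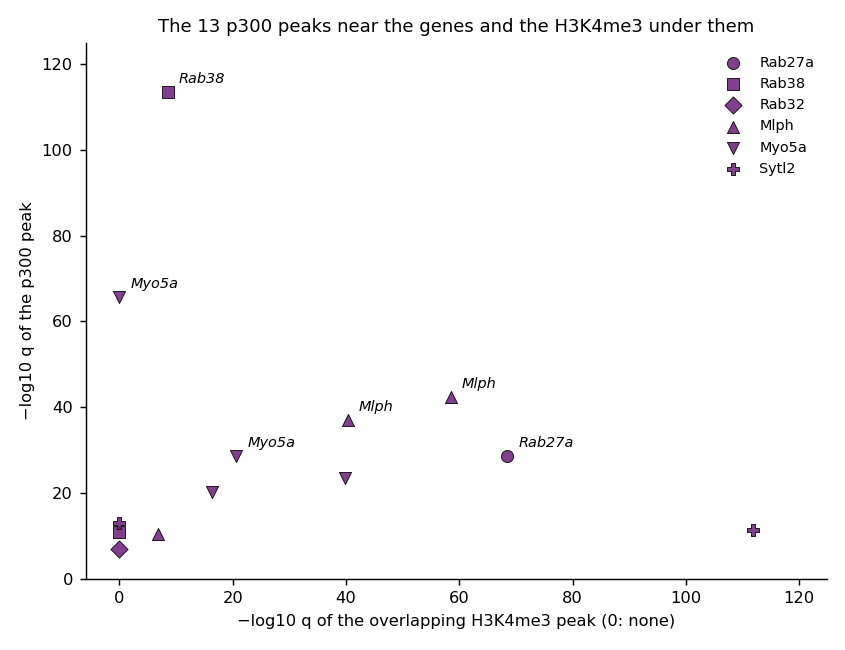
Each point is 1 of the 13 p300 peaks, with its −log10 q (y axis) against that of the H3K4me3 peak it overlaps (x axis, 0 where there is none); symbols give the gene. The strongest p300 peaks, of Rab38 at 113 and Myo5a at 65.6, have little or no H3K4me3 under them.

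The counts depended in part on which peaks were kept. In the upper 50% of the H3K4me3 list by fold, 3 of the 6 genes (Rab27a, Rab38 and Rab32) had H3K4me3 at an end, against 34.4% of all genes. In the upper 50% by −log10 q, 5 of 6 had it, all but Sytl2, against 42.3%. p300 inside the gene was found in 4 of 6 (Rab27a, Rab38, Mlph and Myo5a) in the upper 50% by either value, against 4.53% by −log10 q and 4.40% by fold. At Rab27a this was the peak that covers the internal RefSeq start. H3K4me3 inside the gene was found in 4 with all peaks. In the upper 50% it was left in 1 by −log10 q (Rab27a, against 10.7% of all genes). By fold it was left in 2 (Rab27a and Myo5a, against 12.0%). p300 in or within 50 kb was found for all 6 genes with all peaks. In the upper 50% by either value it was left for 4 of 6, without Rab32 and Sytl2. The shares of all genes were then 27.1% by −log10 q and 27.6% by fold.

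Other genes of the pathway were counted in the same way, from lists of related function, to set the 6 beside them. Of 9 other RAB27 genes and effectors, H3K4me3 was at an end of 2, Rph3al and Sytl4, with −log10 q of 22.3 and 9.58. Rab27b, the paralogue of Rab27a, had none at an end and no p300 within 50 kb, and neither had Exph5 nor Sytl5. Sytl1, Sytl3, Myrip and Unc13d also lacked H3K4me3 at an end. No gene of this list had p300 at an end, and 3 of 9 (Sytl3, Myrip and Rph3al) had it inside. H3K4me3 was inside 4 of 9 (Rab27b, Sytl3, Myrip and Rph3al), against 21.6% of all genes, so lacking it at an end did not mean lacking it in the gene. p300 was in or within 50 kb of 5 of 9 (Sytl1, Sytl3, Myrip, Unc13d and Rph3al), against 44.2%. Rab27a and the partners Mlph, Myo5a and Sytl2 were all marked by H3K4me3 at an end. The difference between the lists was not tested.

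Of 6 genes of the RAB32 and RAB38 machinery, Vamp7 was not assessed, since the gene table places it in the first 3 Mb of chromosome X, where no peak of either list lay. The other 5 had H3K4me3 at an end. The strongest were Hps1, a subunit of the exchange factor for RAB32 and RAB38, with −log10 q of 122, and Ankrd27, an effector of both, with 119. Hps1, Hps4 and Ankrd27 had p300 at an end, so p300 was counted at an end of 3 of these 5 and inside 1, Sgsm2. Of 14 motors and other motility genes 11 had H3K4me3 at an end, all but Myo5b, Myo5c and Rab17. For p300 the counts were 6 at an end, 4 inside (Mreg, Kif5b, Klc1 and Myo10) and 14 within 50 kb. The peaks within 50 kb of Rab17 and Myo5c are those of Mlph and Myo5a described above.

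The melanin synthesis and matrix genes, 10 in number, had H3K4me3 at an end in 8, all but Mlana and Oca2, p300 at an end in 5 and inside in 4. Of 56 other Rab genes 46 had H3K4me3 at an end, 12 had p300 there, 6 had it inside and 40 within 50 kb. Among the lists counted so far, the genes standing in 2 are Rab1a, Rab7, Rab11b, Rab17 and Rab27b. The melanocyte markers described below share Pmel, Mlana, Tyr, Tyrp1 and Dct with the melanin genes. Pmel and Mlana are thus counted in both of these lists in the next comparison. p300 inside the gene was counted in 5 of the 6 transport genes, 3 of the 7 melanocyte markers, 4 of the 10 melanin genes, 3 of the 9 other RAB27 genes and effectors, 4 of the 14 motility genes, 1 of the 5 assessed genes of the RAB32 and RAB38 machinery and 6 of the 56 other Rab genes. Among the transport genes this includes Rab27a, whose p300 peak covers a RefSeq start. Gene length varied with the list. The median was 57057 bp for the transport genes, 79938 for the RAB27 list, 47788 for the motility genes, 25541 for the melanin genes, 22941 for the other Rab genes and 17170 for all genes. The part of length in these shares was not tested.

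**Figure D5:**
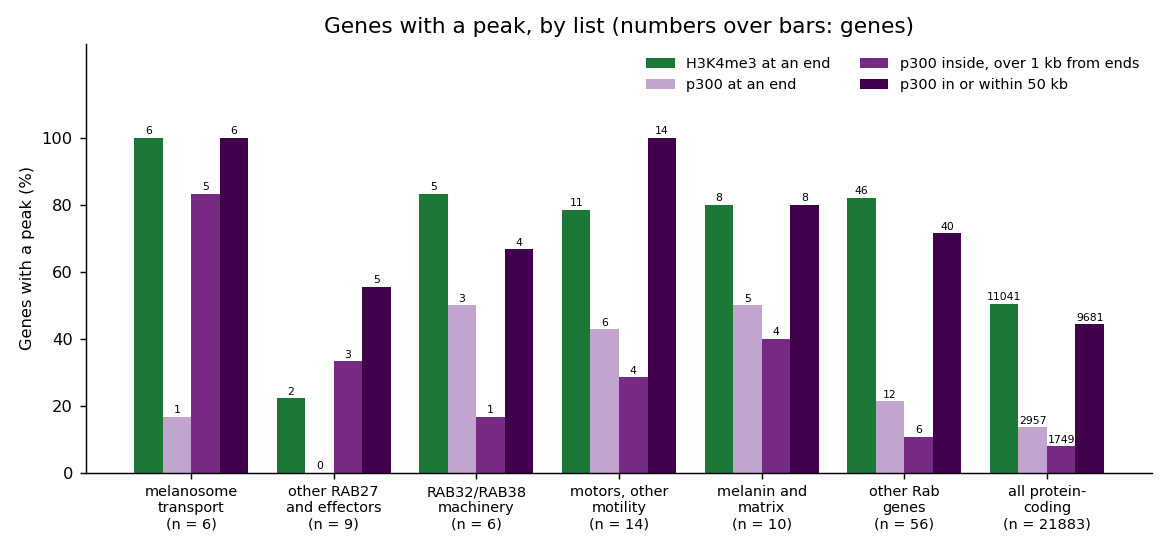
Percentage of genes with a peak (y axis) in 7 sets of genes, with the number of genes over each bar. Green, H3K4me3 within 1 kb of an annotated end; light to dark purple, p300 at an end, inside the gene over 1 kb from its ends, and in the gene or within 50 kb. The third bar is highest, at 5 of 6 genes, in the melanosome transport genes, among them Rab27a, whose p300 peak covers a RefSeq start. The RAB32 and RAB38 bars still count Vamp7, which was not assessed, among their 6 genes.

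The genes most alike were looked up among 90 genes of the other lists. Likeness was the Euclidean distance between percentile ranks, over all protein-coding genes, of 4 measures: the highest −log10 q of H3K4me3 at an end, of p300 at an end and of p300 within 50 kb, and the number of p300 peaks within 50 kb. The closest pair was Mlph and Pmel, which encodes the fibril protein of the melanosome, at a distance of 2.65 percentile points. H3K4me3 at an end had a −log10 q of 58.6 at Mlph and 57.9 at Pmel, and both had 3 p300 peaks, the strongest of 42.4 and 55.6. The annotated spans of Pmel and Rab5b overlap at 1 end. Rab5b had the same values for H3K4me3 at an end (57.9) and for its strongest p300 peak (55.6), so these are not particular to Pmel. Myo5a was closest to Rab31 (4.01), with H3K4me3 of 39.9 and 38.7 and p300 of 65.6 and 57.4. The other nearest genes were Rab5c for Rab32 (6.02), Rab33b for Sytl2 (6.03), Myo10 for Rab38 (9.01) and Rab4a for Rab27a (10.1). These distances rest on 2 libraries.

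The labelled cell type was checked on its markers. Of 7 melanocyte markers (Mitf, Sox10, Pmel, Mlana, Tyr, Tyrp1 and Dct), H3K4me3 was at an end of 6, with Mlana marked inside the gene. Of 6 markers of epithelium, leukocytes, endothelium and fibroblasts it was at an end of 2, Cd68 and Col1a1, and absent there from Epcam, Krt14, Ptprc and Pecam1. The share of all genes was 50.5%. Strength did not separate the 2 sets. By −log10 q the end peaks of Sox10 (18.8), Dct (19.1) and Tyr (31.0) lay below the list median of 31.9. Those of Mitf (122), Tyrp1 (61.4) and Pmel (57.9) lay above it, and so did those of Cd68 (82.9) and Col1a1 (59.9). Pecam1, like Mlana, was marked inside the gene, with 3 H3K4me3 peaks and 1 p300 peak. Of the melanocyte markers 3 had p300 at an end, and of the others 0, against 13.5% of all genes. Within 50 kb p300 was found for 6 of the 7 melanocyte markers, all but Tyr. Of the 6 others it was found for 3 (Cd68, Pecam1 and Col1a1), against 44.2% of all genes.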

How the data were processed

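CUT&Tag libraries of wild-type B16 cells were used, 1 for H3K4me3 and 1 for p300, grouped by their titles. The submitters' processing notes name mm10 as the build, and as tools deepTools, Picard 2.22.4, Bowtie2 2.2.5 and Trim Galore. The peak caller, its control and the number of replicates pooled remain not given in the sources used here. Deposited by the authors with each peak were a score, a fold enrichment (read as a ratio), a −log10 p and a −log10 q. The score follows the −log10 q and was not used further. Fold and −log10 q describe and rank peaks within a list only.

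Peaks on the nuclear chromosomes (27019 and 6512) were overlapped with RefSeq genes in Python 3.11.15 (pandas 2.3.3, scipy 1.17.1), with at least 1 bp in common. The table lists 108 of the 21883 genes in the first 3 Mb of a chromosome other than Y, where no peak lay. They stay in the shares of all genes, and without them the share with H3K4me3 at an end would be 50.7% and with p300 within 50 kb 44.5%. Summit reads were solved from the deposited −log10 p and fold as a Poisson tail with a fold of (reads + 1) over (background + 1). A whole number of reads was sought for 26993 H3K4me3 and 6490 p300 peaks, and matched the −log10 p to 0.002 in 99.99% and 100% of them. The method recovered known values on simulated data. PCR copies may be among these reads.

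The members, lists, windows and tests were chosen with earlier results of these data known. Named were all members, the 2 genes of each list with the highest −log10 q for p300 and for H3K4me3, the members of minorities of 4 or fewer, genes sharing a p300 peak with a member, and the nearest gene by pattern.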

Additional observations from a re-analysis of the deposited data

How the results depend on the processing

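The counts over the 6 genes were recomputed with other windows, distances, peak thresholds and definitions of overlap, 9 settings in all. Over these settings 24 counts stayed within 1.5 times the value reported and 7 moved further. With a gene end window of 2 kb, p300 was at an end of 2 genes, Rab38 and Myo5a. No share of all genes is given for that window, so the added gene cannot be read as particular to the members. In the upper 50% of the list by −log10 q, p300 was at an end of 0 genes, against 6.5% of all genes. In the upper 50% by fold, H3K4me3 was at an end of 3 genes, against 34.4% of all genes. By fold it was at the RefSeq start of 2 of 4, against 36.4% of genes with a start in the table. The p300 peaks overlapping H3K4me3 were 4 of 8 in the upper 50% of both lists by −log10 q (63.0% of all such p300 peaks), 2 of 8 by fold (62.1%) and 5 of 13 when at least 50% of the p300 peak had to be covered. The cause of these shifts was not tested, beyond the smaller number of peaks kept. With 1 library for each antibody no replicate could be left out, and the spread between cultures is unknown. Depth limits the absences: 14 reads was the smallest p300 summit listed, and the p300 peak beside Rab32 held 16.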

Other observations

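In the other lists of the pathway, p300 peaks stronger by −log10 q than that of Rab38 (113) lay in or within 50 kb of Klc1, Sgsm2 and Gpnmb. The strongest of each lay outside the gene and over 1 kb from its ends, while that of Rab38 lay inside the gene. The p300 peak inside Klc1 had a −log10 q of 81.9, and the one at an end of Gpnmb had 156. Klc1, which encodes a light chain of the kinesin motor that moves cargo along microtubules, had 6 p300 peaks in or within 50 kb, with −log10 q of up to 185 and folds of up to 10.2. Sgsm2, which encodes a GTPase-activating protein, had 5, with −log10 q of up to 129.7. The highest fold at Sgsm2, 6.88, was that of the peak inside the gene, which had a −log10 q of 39.2. Unc13d, a RAB27 effector in granule release, had 4 of up to 70.0, all outside the gene, and no H3K4me3 at an end or inside the gene. Gpnmb, a melanosome glycoprotein, had 4 of up to 315. Among the motors Myo6 had the highest H3K4me3 at an end, with a −log10 q of 193, followed by Rab1a with 138.

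Of the other Rab genes, p300 within 50 kb was highest at Rab31 and Rab8b, with −log10 q of 57.4 and 57.2, and H3K4me3 at an end at Rab30 and Rab36, with 191 and 162. Rab38 exceeded all 56 of them in p300, with 113, and Myo5a, with 65.6, did so as well. Of the transport genes Rab32 was the one whose highest p300 value, 6.90, lay below the median of the other Rab genes, 12.2.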
